A study of Homo sapiens with 10 samples.

Results

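The genes described here encode KRAB zinc finger proteins that are known to bind transposable elements. They were taken by name from a list of 41 symbols, of which 38 had a row in a table of 14785 rows that covered 13808 genes and otherwise mostly subfamilies of transposable elements. ZNF534, ZNF257 and ZNF324 were not analysed here. The rule that picks the rows uses no measured value. Of the 38 genes, 23 are on chromosome 19, and the translated GENCODE coding sequences hold from 4 C2H2 fingers in ZNF589 to 31 in ZNF91. A KRAB domain pattern was found in 34 of the 38.

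A KRAB zinc finger protein reads DNA with a row of C2H2 fingers, each of which contacts a short stretch of bases. Its KRAB domain recruits the corepressor TRIM28, which in turn brings the histone H3 lysine 9 methyltransferase SETDB1, HP1 proteins (CBX1, CBX3, CBX5) and the NuRD complex (CHD3, CHD4, HDAC1, HDAC2). Many of these proteins silence a certain family of transposable elements in early embryonic cells, and many of their genes lie in tandem clusters on chromosome 19 that expanded in primates.

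RNA-seq was done on total RNA of H1, a widely used human embryonic stem cell line that the labels call wild type, grown in mTeSR1 on Matrigel. Cells received packaged short hairpin RNA (shRNA) virus and were selected with puromycin. The control hairpin targeted luciferase (shLUC), and the others targeted SMARCA4 (the ATPase of a BAF chromatin remodelling complex), MAFK (a small MAF transcription factor), E2F6 (a repressive E2F) or KDM1A (the histone demethylase LSD1). Each of the 5 groups had 2 libraries, described as biological duplicates, and values are given below as replicate 1, then replicate 2. The labels name 1 hairpin target per group and no second hairpin or clone.

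Values are the authors' normalized tag counts, whole numbers with the same median of 594 in all 10 libraries and totals between 22836548 and 22855295, so read depth is unknown. At 80.3% of ranks the value was the same in all 10 libraries, which means that a shift shared by most of the RNA cannot be seen. Each targeted gene had a lower mean under its own hairpin. SMARCA4 stood at 1100 and 985 under its hairpin and at 8086 and 8374 in shLUC. MAFK stood at 82 and 216 against 212 and 288, E2F6 at 336 and 304 against 491 and 553, and KDM1A at 3290 and 1879 against 6344 and 5925. The second shMAFK library, at 216, lay within the range of its control for MAFK, so that knockdown is read with this limit. All 10 listed pluripotency markers were in the table, and 0 passed the test in any knockdown. Under shSMARCA4, SOX2, LIN28A and TDGF1 lay below both shLUC libraries, with log2 changes of -0.54, -0.44 and -0.56, and NANOG lay above them at 0.68 (adjusted p from limma of 0.0552, 0.0773, 0.115 and 0.284). The mesendoderm markers MIXL1, EOMES and FOXA2 were at 34 or less in every library except the shSMARCA4 pair, where MIXL1 was 1809 and 132, EOMES 2430 and 724, and FOXA2 792 and 170. These are 3 of the 9 mesendoderm markers listed. The part of such cells in any result below on shSMARCA4 was not tested. In bulk RNA, fewer cells of a type and less RNA per cell cannot be told apart.

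All 38 zinc finger genes were measured in every library of H1 cells, at 121 to 4196 normalized tag counts. Their means over the 10 libraries lay between the 17.1st and the 90.9th percentile of all rows, and all 38 passed the filter of a mean of at least 10. Levels were compared between genes per kilobase of exon in GENCODE release 29. On that scale ZNF589, also known as SZF1, had the highest shLUC mean at 516 normalized tag counts per kilobase. ZNF282, ZNF398 and ZNF649 followed at 283, 256 and 240. The ZNF282 libraries (306 and 260) overlapped those of ZNF398 (266 and 247), so their order is not set beyond the spread. ZNF600 at 26.9 and ZNF382 at 19 were lowest. Whether the deposited values had already been scaled for length is not stated in the sources used here.

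Among the best known members, the mean levels per kilobase in shLUC ran from 35.7 for ZNF611 to 240 for ZNF649. ZNF93, which binds primate L1 elements, had a mean of 118, and ZNF91, which binds SVA elements, a mean of 40.4. ZNF587 and ZNF417, a duplicated pair that binds HERVK, had means of 174 and 104. ZNF808, a binder of MER11 elements, stood at 62.5. ZNF445, which is known for keeping genomic imprints, stood at 63.9. ZNF10, whose KRAB domain is the one widely fused to dCas9 for gene silencing, stood at 61.2. ZNF611, a further binder of SVA elements, was at 35.7.

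Between libraries the levels moved within a narrow range. The highest of the 10 values was 1.21 times the lowest for ZNF695 and 2.98 times for ZNF480, the members with the narrowest and the widest range. ZNF445 was at 1020 and 1392 in shLUC, 1304 and 1428 in shKDM1A, 1136 and 1160 in shE2F6, 1288 and 1624 in shMAFK, and 1356 and 1367 in shSMARCA4. All 4 knockdown pairs overlapped its shLUC pair. ZNF10 was at 288 and 390 in shLUC, 262 and 348 in shKDM1A, 248 and 280 in shE2F6, 398 and 449 in shMAFK, and 293 and 286 in shSMARCA4. It lay above shLUC in shMAFK and below it in shE2F6. ZNF611 was at 256 and 254 in shLUC, 194 and 258 in shKDM1A, 206 and 257 in shE2F6, 246 and 240 in shMAFK, and 296 and 308 in shSMARCA4, where both values were its highest.

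Sequence shared with other genes limits how far some of these rows can be read, since the sources do not say how reads with several matches were counted. The coding sequences of ZNF417 and ZNF587 were 99.1% identical, with 16 differing bases of 1725. A 120-base stretch at coding positions 867 to 986, cut from GRCh38 at chr19:57909292-57909411 (minus strand) for ZNF417 and chr19:57859279-57859398 (plus strand) for ZNF587, shows how little separates them. The stretch codes for part of the finger array, is written in the sense of the gene, and has its 4 differing bases in capitals:
ZNF417: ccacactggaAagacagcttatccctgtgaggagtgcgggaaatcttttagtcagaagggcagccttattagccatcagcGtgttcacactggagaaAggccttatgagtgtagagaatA
ZNF587: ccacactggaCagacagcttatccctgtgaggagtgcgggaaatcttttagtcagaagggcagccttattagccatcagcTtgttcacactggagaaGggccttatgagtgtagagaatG
Windows of 50 bases were taken from the transcript of each gene with the longest coding sequence. For ZNF417, 40.1% of them occurred in a transcript of another gene, mainly of ZNF587. The share was 28.6% for ZNF808 (mainly ZNF701), 20.7% for ZNF354A (mainly ZNF354B), 20.2% for ZNF587 and 18.2% for ZNF600 (mainly ZNF611). It was 22.8% for ZNF10, all with AC026786.1, which also shared windows with ZNF268. Whether AC026786.1 is a separate copy or overlaps these genes was not tested. Values of these genes are uncertain to the extent that reads were split between genes with shared sequence. ZNF417 was at 384 and 494 in shLUC, 302 and 456 in shKDM1A, 389 and 404 in shE2F6, 428 and 597 in shMAFK, and 448 and 446 in shSMARCA4. ZNF587 was at 1246 and 1314 in shLUC, 1031 and 1254 in shKDM1A, 1228 and 1402 in shE2F6, 1173 and 1308 in shMAFK, and 1031 and 1134 in shSMARCA4. Only the shSMARCA4 pair of ZNF587 was clear of shLUC, and it was lower; no pair of ZNF417 was.

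None of the 38 genes passed the test in any knockdown, with adjusted p from limma's moderated test over all rows below 0.05 as the threshold. The background was 4.18% of all rows for SMARCA4, 0.0135% for MAFK, 0.0% for E2F6 and 0.0271% for KDM1A, so counts of 0 among 38 genes are near what the whole table gives. At an unadjusted p below 0.05 the count was 2 genes (ZNF808 and ZNF850) under shSMARCA4, 2 (ZNF649 and ZNF589) under shMAFK, and 0 under shE2F6 and shKDM1A, beside 16.3%, 8.77%, 5.09% and 11.5% of all rows. These unadjusted counts moved with single libraries, from 0 to 3, 1 to 3, 0 to 1 and 0 to 5 as each was left out: under shSMARCA4 it was 0 without shSMARCA4 replicate 2, under shKDM1A it was 5 without shKDM1A replicate 2, and with the replicate number as a block it was 3, 6, 0 and 2 in the same order. An F-test over the 4 knockdowns together also passed 0 members, against 6.64% of all rows. It gave its lowest adjusted p for ZNF649 (0.0908) and ZNF589 (0.0988), and 5 members had an unadjusted p below 0.05, beside 23.6% of rows. All 4 comparisons use the same shLUC libraries, so their values for a gene are not independent.

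The precision of the design bounds what could have been missed. The 95% interval of the log2 change lay within 1 log2 unit of 0 for 34 of 38 genes under shSMARCA4, 34 under shMAFK, 35 under shE2F6 and 35 under shKDM1A. The distance from the estimate to the end of its interval had a median of 0.44 log2 units in each comparison. A doubling was thus outside the interval for most members, and differences smaller than the interval were not resolved.

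**Figure D1:**
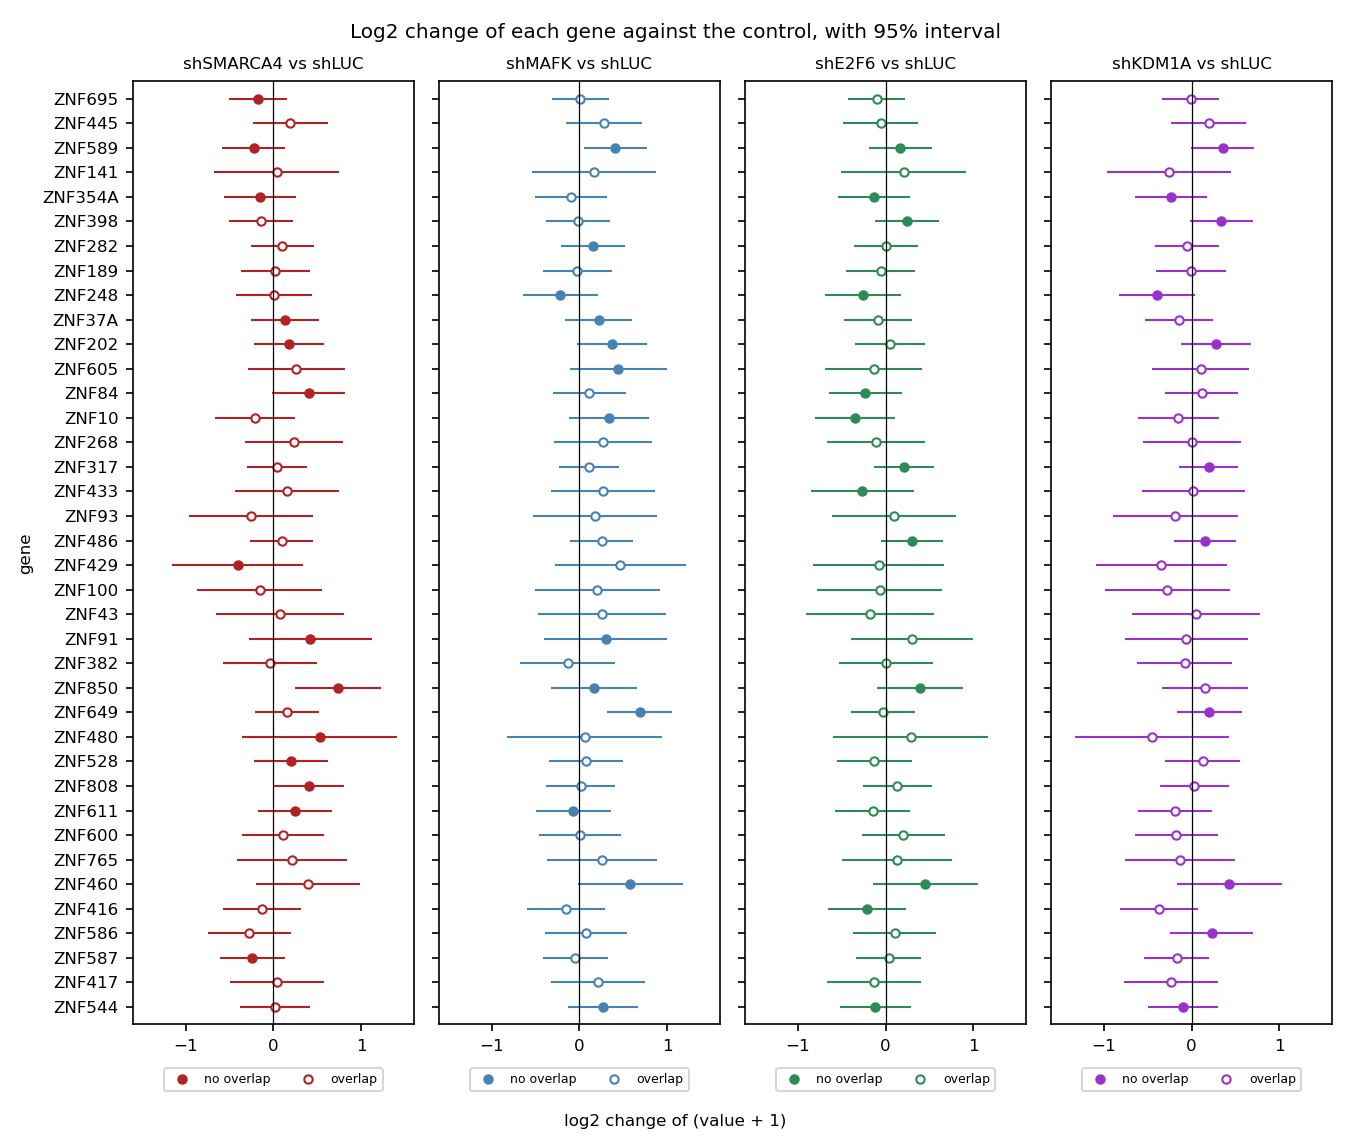
Log2 change of each of the 38 genes (rows, in genome order) in each knockdown against shLUC, with 95% intervals from limma. Filled points mark genes whose 2 knockdown libraries both lay outside the range of the 2 shLUC libraries; changes ran from -0.45 to 0.74, and none passed the adjusted threshold.

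Under shSMARCA4, which lowers the remodeller's ATPase, the genes with both libraries above both shLUC libraries numbered 9 of 38, and those with both below numbered 5. All rows gave 25.6% and 25.4%, so neither share stands above the background. The median log2 change was 0.08 over the members and 0.01 over all rows, and 26 of 38 members were positive. Without shLUC replicate 1 the member median was 0.00.

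ZNF850, which encodes 29 fingers, had the largest difference under shSMARCA4. It stood at 624 and 610 in shLUC, 728 and 654 in shMAFK, 904 and 1176 in shSMARCA4, 684 and 962 in shE2F6, and 602 and 777 in shKDM1A. The second shSMARCA4 library was above every library of the other groups, and the first was above all of them except the second shE2F6 library. The log2 change under shSMARCA4 was 0.74 (SE 0.22, 95% interval 0.25 to 1.23), and limma gave an adjusted p of 0.110. The 250 bases before its RefSeq start, chr19:36772808-36773057 on the minus strand of GRCh38.p14, are shown because they hold a match to the E2F motif GGCGGGA, in capitals, 16 bases before the start:
ZNF850: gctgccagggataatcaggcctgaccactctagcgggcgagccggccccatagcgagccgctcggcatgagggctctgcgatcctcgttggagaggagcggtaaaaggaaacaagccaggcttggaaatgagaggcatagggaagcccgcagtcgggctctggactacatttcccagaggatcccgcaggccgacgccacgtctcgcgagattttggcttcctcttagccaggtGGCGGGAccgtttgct
Under shE2F6 the log2 change of ZNF850 was 0.39 (SE 0.22, adjusted p = 0.995 by limma), with no overlap with shLUC.

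ZNF480 was at 264 and 216 in shLUC and 304 and 390 in shSMARCA4. Its other libraries were 218 and 390 in shE2F6, 181 and 342 in shMAFK, and 131 and 232 in shKDM1A. It had the widest replicate difference of any member in both shMAFK and shE2F6, and its log2 change under shSMARCA4 was 0.53 (SE 0.39).

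ZNF91, the SVA binder with 31 fingers, was at 413 and 428 in shLUC and at 466 and 682 in shSMARCA4. It was 414 and 649 in shE2F6, 482 and 557 in shMAFK, and 303 and 536 in shKDM1A. The shLUC pair agreed closely, whereas each knockdown pair was spread with replicate 2 higher. The log2 change under shSMARCA4 was 0.42 (SE 0.31), and limma's adjusted p was 0.588.

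ZNF808, the MER11 binder, was at 290 and 336 in shLUC and at 392 and 438 in shSMARCA4. The other libraries held 324 and 306 (shMAFK), 304 and 386 (shE2F6), and 298 and 341 (shKDM1A). Both shSMARCA4 values were above every other library. The log2 change was 0.41 (SE 0.18), with an unadjusted p of 0.045 and an adjusted p of 0.289 by limma. Its neighbours on chromosome 19 shared the sign. In the cluster at chr19:51889224-53430413, which holds ZNF649, ZNF480, ZNF528, ZNF808, ZNF611, ZNF600 and ZNF765, the log2 change under shSMARCA4 was positive for 7 of 7, with a median of 0.21, and 4 lay above both shLUC libraries, as did 25.6% of all rows. The clusters around ZNF91 and ZNF587 were each positive for 3 of 6. The chromosome 12 group of ZNF605, ZNF84, ZNF10 and ZNF268 was positive for 3 of 4, with a median of 0.25. Log2 changes under shSMARCA4 were positive for 51.0% of all rows and for 59.7% of 233 other genes with a KRAB zinc finger pattern.

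On the lower side under shSMARCA4, ZNF429 was at 234 and 249 against 268 and 382 in shLUC, a log2 change of -0.41 (SE 0.33). ZNF587 was at 1031 and 1134 against 1246 and 1314, a log2 change of -0.24 (SE 0.16). ZNF589 was at 2346 and 2530 against 2879 and 2818, a log2 change of -0.23 (SE 0.16). Adjusted p from limma was 0.642, 0.545 and 0.565. Neither shSMARCA4 library overlapped shLUC in these 3 genes. ZNF587's partner ZNF417 was at 448 and 446 in shSMARCA4, between its shLUC values of 384 and 494.

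**Figure D2:**
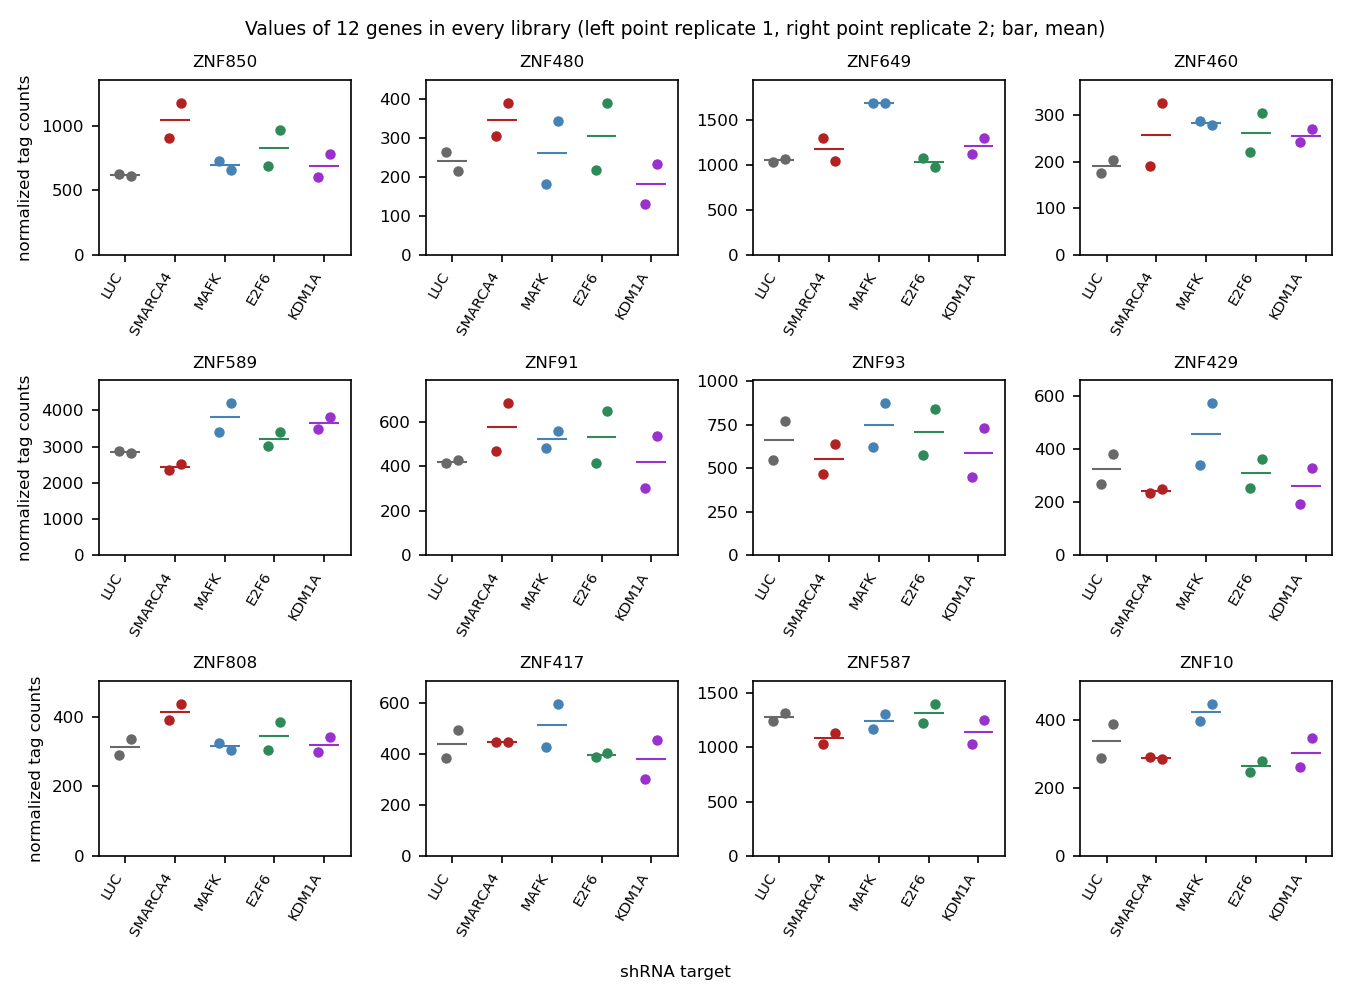
Normalized tag counts of 12 genes in every library (linear axes from 0; points are libraries, bars the mean of 2). ZNF850 and ZNF808 sit high in shSMARCA4, ZNF649 sits at 1687 and 1681 in shMAFK, and ZNF91, ZNF93 and ZNF429 have replicate 2 above replicate 1 in all 5 groups.

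Under shMAFK, 11 members lay above both shLUC libraries and 2 below them, beside 23.8% and 25.3% of all rows. The median log2 change of the members was 0.17, that of all rows 0.00, and 30 of 38 members were positive. This median rested largely on 1 library: it was 0.04 without shMAFK replicate 2, 0.30 without shMAFK replicate 1, and 0.10 without shLUC replicate 1.

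ZNF649, a binder of L1PA elements, had the smallest adjusted p under shMAFK. It was at 1028 and 1066 in shLUC, 1687 and 1681 in shMAFK, 1300 and 1046 in shSMARCA4, 1078 and 976 in shE2F6, and 1120 and 1294 in shKDM1A. Both shMAFK libraries were above all 8 others. The log2 change was 0.69 (SE 0.16, 95% interval 0.32 to 1.05), with an unadjusted p of 0.002 and an adjusted p of 0.197 by limma.

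ZNF460 was at 176 and 204 in shLUC and at 288 and 280 in shMAFK, a log2 change of 0.58 (SE 0.26). Its other libraries were 190 and 327 in shSMARCA4, 220 and 306 in shE2F6, and 242 and 270 in shKDM1A. Since both shLUC values were among the 3 lowest of the 10 libraries, ZNF460 was without overlap in 3 of the 4 knockdowns, with log2 changes of 0.45 under shE2F6 and 0.43 under shKDM1A. These share the shLUC values.

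ZNF589 was at 3413 and 4196 in shMAFK against 2879 and 2818 in shLUC, and at 3025 and 3396 in shE2F6 and 3474 and 3820 in shKDM1A. Its log2 change was 0.41 (SE 0.16) under shMAFK and 0.35 (SE 0.16) under shKDM1A. The adjusted p from limma was 0.493 and 0.438. ZNF589 thus lay above shLUC in these 3 knockdowns and below it in shSMARCA4, with no overlap in any.

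ZNF605 was at 536 and 711 in shMAFK against 400 and 514 in shLUC, a log2 change of 0.44 (SE 0.24). The 2 genes below both shLUC libraries were ZNF248 (310 and 362 against 390 and 389) and ZNF611 (246 and 240 against 256 and 254). Their log2 changes were -0.22 (SE 0.19) and -0.07 (SE 0.19).

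Under shE2F6, 6 members were above both shLUC libraries and 7 below, beside 20.3% and 20.4% of all rows. The median log2 change was -0.04 (0.00 for all rows), and its sign was not stable: it was 0.13 without shE2F6 replicate 1 and 0.05 without shLUC replicate 2. ZNF486 was at 567 and 566 against 426 and 496 in shLUC, a log2 change of 0.30 (SE 0.16), and had the smallest adjusted p of the members (0.987 by limma). ZNF10 was at 248 and 280 against 288 and 390, a log2 change of -0.35 (SE 0.20). ZNF433 was at 142 and 121 against 146 and 170 (-0.26, SE 0.26), and ZNF248 at 316 and 336 against 390 and 389 (-0.26, SE 0.19). ZNF10 lies in a group of 4 members on chromosome 12 (ZNF605, ZNF84, ZNF10, ZNF268), in which 4 of 4 log2 changes were negative under shE2F6 (median -0.18) and 4 of 4 positive under shMAFK (median 0.30). The sign under shMAFK was not particular to this group. It was positive for 6 of 6 genes in the cluster around ZNF91 (median 0.26) and for 30 of 38 members.

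Under shKDM1A, 8 members were above both shLUC libraries and 3 below, beside 17.9% and 20.9% of all rows. The median log2 change was -0.03 (-0.02 for all rows), and the 2 shKDM1A libraries differed: without replicate 1 the median was 0.12 and 31 of 38 genes were positive, and without replicate 2 it was -0.17 and 11 were positive. Without shLUC replicate 2 it was 0.07. ZNF398 was at 2006 and 1909 against 1605 and 1491, a log2 change of 0.34 (SE 0.16, adjusted p = 0.446 by limma). The 3 lower genes were ZNF248 (268 and 327 against 390 and 389, -0.39, SE 0.19), ZNF354A (309 and 356 against 385 and 398, -0.24, SE 0.18) and ZNF544 (791 and 799 against 812 and 891, -0.10, SE 0.18). ZNF248 was thus lower without overlap in 3 knockdowns, all read against the same shLUC pair of 390 and 389.

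A larger pattern ran between the replicates of a group. Replicate 2 was above replicate 1 for 26 of 38 members in shLUC, 26 in shMAFK, 25 in shSMARCA4, 30 in shE2F6 and 32 in shKDM1A. Over all rows the share was 47.3% in shLUC, 47.5% in shMAFK, 50.2% in shSMARCA4, 48.4% in shE2F6 and 51.1% in shKDM1A. The 233 other genes with a KRAB zinc finger pattern in their coding sequence shared this in part, with 68.2% in shLUC, 74.2% in shMAFK, 50.6% in shSMARCA4, 61.8% in shE2F6 and 58.4% in shKDM1A. In all 5 groups at once replicate 2 was the higher for 13 of 38 members (34.2%), against 5.79% of all rows (856 of 14785). It was higher in 0 of the 5 groups for 0 members, beside 1019 of the 14785 rows. The 13 were ZNF91, ZNF93, ZNF765, ZNF84, ZNF141, ZNF587, ZNF445, ZNF382, ZNF429, ZNF37A, ZNF100, ZNF528 and ZNF605. The labels give no batch or date that ties libraries of the same number together. Over all rows the replicate difference correlated between groups at -0.05 to 0.34, above 0.1 for 2 of 10 pairs of groups. Over the members it correlated at 0.10 to 0.64, above 0.1 for 10 of 10 pairs. What links libraries of the same number was not tested.

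As a level, the median deviation of the members from their own 10-library mean, in log2 units, was -0.14 and 0.05 in the shLUC libraries. It was -0.01 and 0.23 in shMAFK, 0.04 and 0.07 in shSMARCA4, -0.14 and 0.09 in shE2F6, and -0.20 and 0.08 in shKDM1A. The highest library was shMAFK replicate 2, with 31 of 38 members above their mean, and the lowest was shKDM1A replicate 1, with 7 of 38. The 233 other KRAB zinc finger genes ran from -0.12 in shE2F6 replicate 1 to 0.14 in shMAFK replicate 2. Against shLUC these others had median log2 changes of 0.06 under shSMARCA4, 0.08 under shMAFK, -0.08 under shE2F6 and 0.00 under shKDM1A. Of the 233, 1 passed the test, ZNF730 under shSMARCA4 (650 and 754 against 428 and 433, log2 change 0.70, adjusted p = 0.0365 by limma), named here after its value was seen. Over the 5 groups together the median SD within groups was 0.18 log2 units for members and 0.22 for all rows. By group, the median size of the replicate difference was larger for members than for all rows in shLUC (0.22 against 0.15) and in shMAFK (0.24 against 0.16), and smaller in shSMARCA4 (0.18 against 0.22), shE2F6 (0.19 against 0.20) and shKDM1A (0.29 against 0.38).

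**Figure D3:**
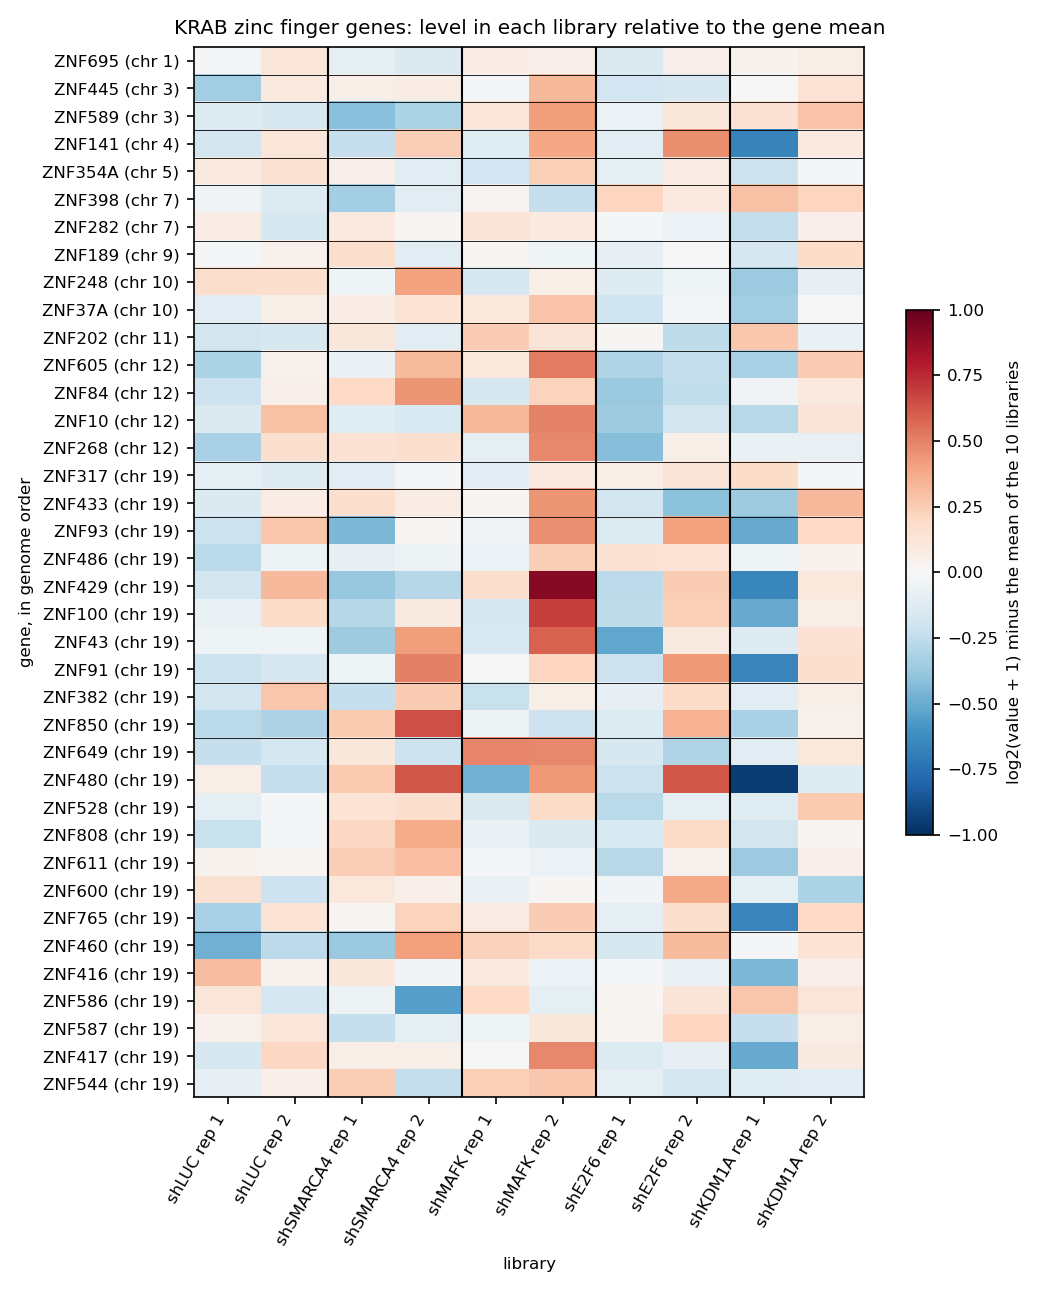
Level of each gene (rows, in genome order, thin lines between genomic clusters) in each of the 10 libraries, as log2(value + 1) minus the gene's mean. Replicate 2 of shMAFK and replicate 1 of shKDM1A are the reddest and bluest columns, with medians of 0.23 and -0.20.

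The ZNF91 cluster on chromosome 19 had wide replicate differences. The cluster at chr19:19900913-23395560 holds ZNF93, ZNF486, ZNF429, ZNF100, ZNF43 and ZNF91, and its median log2 difference, replicate 2 minus replicate 1, was 0.23 in shLUC, 0.62 in shMAFK, 0.42 in shSMARCA4, 0.52 in shE2F6 and 0.64 in shKDM1A. The chromosome 12 group of ZNF605, ZNF84, ZNF10 and ZNF268 had a wider one in shLUC, 0.40, and narrower ones in the other groups. ZNF93 was at 547 and 771 in shLUC, 621 and 872 in shMAFK, 464 and 639 in shSMARCA4, 576 and 838 in shE2F6, and 447 and 730 in shKDM1A. Its knockdown means differed from shLUC by less than this spread in each comparison. ZNF429 was at 268 and 382 in shLUC, 254 and 362 in shE2F6, 341 and 572 in shMAFK, and 193 and 327 in shKDM1A, and had the widest replicate difference of the members in shLUC. ZNF765, at 234 and 426, had the widest in shKDM1A, and ZNF460, at 190 and 327, the widest in shSMARCA4.

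Promoter sequence grouped 5 of these 6 genes with 2 others. RefSeq promoter windows (GRCh38.p14, 250 bases before to 50 after the gene start) matched 34 of the 38 members by symbol; ZNF600, ZNF480, ZNF417 and ZNF649 had none in the table used. Over all 561 pairs of windows the median identity was 45.0%. ZNF91, ZNF93, ZNF43, ZNF100, ZNF486, ZNF141 and ZNF695 formed a family with 63.0% to 87.0% identity, although ZNF141 is on chromosome 4 and ZNF695 on chromosome 1. All 7 carry the run CCAATCAGGC, a CCAAT box with 5 more bases, which begins 51 to 58 bases before the start. On either strand this run was in 8 of 34 member windows, those of the family and of ZNF429, and in 0.248% of 35116 RefSeq windows. It was picked as the longest stretch common to the 7 family windows, so its presence in all of them was fixed in advance. The 250 bases before the start are given for 3 of them, in the sense of the gene, with the shared run in capitals: ZNF91 from chr19:23395472-23395721 (minus strand), ZNF93 from chr19:19900696-19900945 (plus strand) and ZNF141 from chr4:337564-337813 (plus strand).
ZNF91: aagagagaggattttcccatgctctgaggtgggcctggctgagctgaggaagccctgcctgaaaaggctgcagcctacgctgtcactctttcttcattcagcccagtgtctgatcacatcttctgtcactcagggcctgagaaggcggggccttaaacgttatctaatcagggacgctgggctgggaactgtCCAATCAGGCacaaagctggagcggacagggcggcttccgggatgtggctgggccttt
ZNF93: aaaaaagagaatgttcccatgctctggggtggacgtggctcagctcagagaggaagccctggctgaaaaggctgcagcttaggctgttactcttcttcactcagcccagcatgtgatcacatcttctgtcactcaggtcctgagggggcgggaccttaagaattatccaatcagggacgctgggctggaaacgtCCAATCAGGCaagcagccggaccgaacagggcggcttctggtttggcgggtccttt
ZNF141: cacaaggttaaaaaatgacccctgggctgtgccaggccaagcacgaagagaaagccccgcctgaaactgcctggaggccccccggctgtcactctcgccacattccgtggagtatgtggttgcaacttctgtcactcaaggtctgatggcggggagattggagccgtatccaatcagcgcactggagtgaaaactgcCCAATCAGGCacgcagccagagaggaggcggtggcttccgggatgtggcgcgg
The median replicate difference of this family, replicate 2 minus replicate 1, was 0.22 log2 units in shLUC, 0.49 in shMAFK, 0.46 in shSMARCA4, 0.54 in shE2F6 and 0.57 in shKDM1A. ZNF141, off chromosome 19, was at 733 and 904 in shLUC, 766 and 1090 in shMAFK, 710 and 985 in shSMARCA4, 771 and 1148 in shE2F6, and 522 and 889 in shKDM1A, so its replicate 2 was higher in every group. The exceptions were ZNF695 in shSMARCA4 (346 and 333) and in shMAFK (390 and 382), ZNF43 in shLUC (558 and 557) and ZNF486 in shE2F6 (567 and 566). Against shLUC the family's median log2 change was 0.04, 0.21, 0.10 and -0.06 under shSMARCA4, shMAFK, shE2F6 and shKDM1A.

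**Figure D4:**
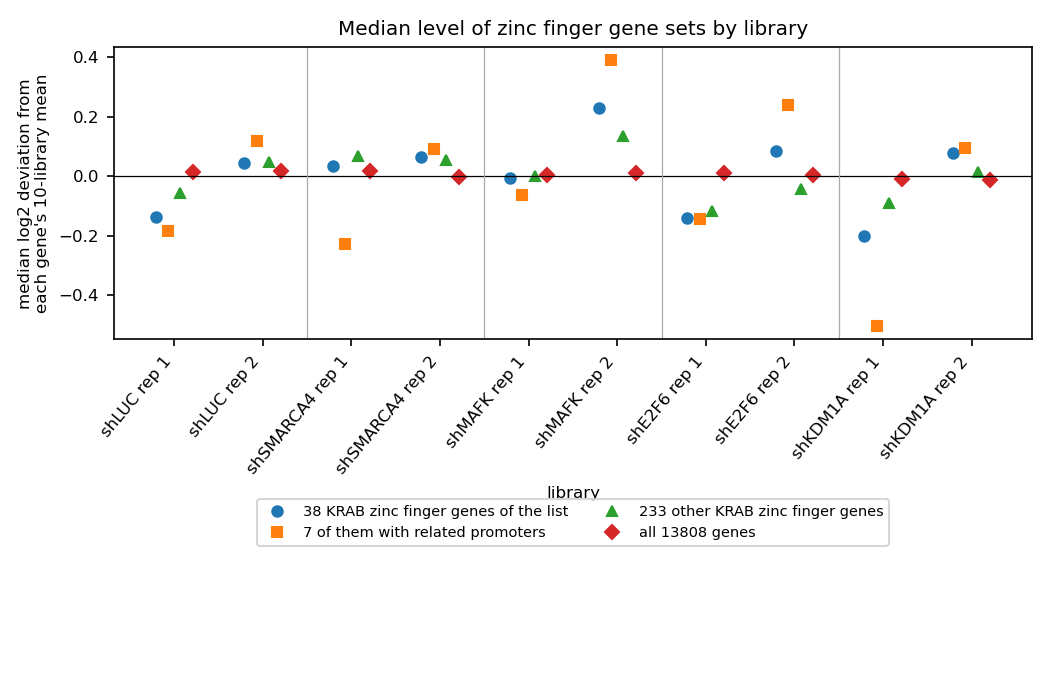
Median log2 deviation from each gene's own mean, by library, for the 38 members, the 7 members with related promoters, 233 other KRAB zinc finger genes and all 13808 genes. The members and the promoter family lie lower in replicate 1 than in replicate 2 of each group, while all genes stay near 0.

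A smaller promoter family held the SVA and MER11 binders ZNF611 and ZNF808 together with ZNF765, with 72.9% to 81.8% identity. The longest run common to these 3 windows, picked from them, is the 19-base TCCCGCCCAGGCCTGGCTT, found in 0.0199% of RefSeq windows. The run holds a reverse-strand match to the E2F motif GGCGGGA. Their 250 bases before the start, on GRCh38.p14, are printed with every match to that motif on either strand in capitals: ZNF808 from chr19:52527418-52527667 (plus strand), ZNF611 from chr19:52735045-52735294 (minus strand) and ZNF765 from chr19:53394899-53395148 (plus strand).
ZNF808: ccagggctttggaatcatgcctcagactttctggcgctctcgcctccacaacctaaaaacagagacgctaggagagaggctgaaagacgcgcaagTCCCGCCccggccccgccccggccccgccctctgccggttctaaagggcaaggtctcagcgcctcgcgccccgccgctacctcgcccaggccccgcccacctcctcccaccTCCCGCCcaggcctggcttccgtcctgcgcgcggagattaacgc
ZNF611: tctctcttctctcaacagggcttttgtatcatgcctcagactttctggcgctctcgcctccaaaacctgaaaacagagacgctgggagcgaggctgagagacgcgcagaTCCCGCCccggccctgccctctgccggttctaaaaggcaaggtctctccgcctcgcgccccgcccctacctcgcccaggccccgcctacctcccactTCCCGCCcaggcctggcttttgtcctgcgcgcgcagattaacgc
ZNF765: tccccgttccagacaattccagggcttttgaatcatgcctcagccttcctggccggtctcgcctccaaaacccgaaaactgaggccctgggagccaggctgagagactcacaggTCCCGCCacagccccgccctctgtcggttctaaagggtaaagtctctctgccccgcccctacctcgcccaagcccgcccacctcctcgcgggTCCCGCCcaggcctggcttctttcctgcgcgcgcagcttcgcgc
Each window has 2 matches, and in all 3 the nearer one begins 44 bases before the start. Under shE2F6 the log2 change was 0.13 for ZNF808, 0.13 for ZNF765 and -0.15 for ZNF611, and none had libraries clear of shLUC.

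Searched on both strands of the 300-base windows, GGCGGGA was in 9 of 34 member windows (26.5%) and in 15.4% of all RefSeq windows. The 9 members with a match had a median log2 change of 0.13 under shE2F6, and the 25 without had -0.07, while all rows had 0.00. The medians with and without a match were 0.21 and 0.04 under shSMARCA4, 0.16 and 0.21 under shMAFK, and -0.10 and -0.01 under shKDM1A, so a gap of about this size was not particular to shE2F6. None of either set passed the test. The small MAF half-palindrome TGACNNNGC was in 4 of 34 (11.8%) and 13.3% of all, the E-box CACGTG in 3 of 34 (8.82%) and 7.26%, and TGCGCA, taken as a comparison, in 6 of 34 (17.6%) and 8.24%. A match is a string of letters and not a measured binding site.

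None of the genes for the machinery that KRAB domains recruit passed the test. All 13 listed corepressor genes were in the table, and 0 passed the test in any knockdown. TRIM28, the shared partner of KRAB domains, was at 19692 and 18607 in shLUC, 18607 and 19692 in shMAFK, 23453 and 25021 in shSMARCA4, 23453 and 27326 in shE2F6, and 30768 and 18607 in shKDM1A. Values as high as these lie on coarse steps that recur between genes, so small differences cannot be read from them. SETDB1 ranged from 1066 to 1353 over the 10 libraries. CHD3, a NuRD ATPase, was at 1627 and 1464 in shSMARCA4 against 980 and 1126 in shLUC, a log2 change of 0.55 (adjusted p = 0.089 by limma). CBX5, which encodes HP1 alpha, was at 18607 and 25021 against 12340 and 13159, a log2 change of 0.76 (adjusted p = 0.157 by limma). HDAC2 went the other way, at 7440 and 5788 against 8496 and 9502, a log2 change of -0.45 (adjusted p = 0.168 by limma). Of the 13 genes, 3 lay above both shLUC libraries under shSMARCA4 and 6 below, beside 25.6% and 25.4% of all rows.

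The groups of elements that these proteins are known to bind were read from 27 subfamily rows, internal parts of proviruses included, and 1 passed the test in 1 knockdown. HERVK11-int, the internal part of the provirus flanked by MER11 repeats, was at 1176 and 858 in shLUC and 2910 and 2216 in shSMARCA4, a log2 change of 1.34 with an adjusted p of 0.0448 by limma. The call was lost in 10 of 20 alternative settings, with adjusted p from 0.0063 to 0.319; without shLUC replicate 1 or 2, or shSMARCA4 replicate 1 or 2, it was 0.126, 0.319, 0.221 and 0.127. MER11A, MER11B and MER11C were also above both shLUC libraries under shSMARCA4, with log2 changes of 0.52, 0.48 and 0.35 that did not pass, and MER11D was not (183 and 170 against 214 and 146). ZNF808, the MER11 binder, was itself at its highest in the shSMARCA4 libraries, as given above. Whether it binds HERVK11-int was not tested. How reads were divided between element copies and genes is not stated.

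The SVA rows, bound by ZNF91 and ZNF611, were highest in shKDM1A replicate 1 in 6 of 6 subfamilies. SVA_D was at 3190 and 4196 in shLUC, 4309 and 4748 in shMAFK, 3850 and 3550 in shSMARCA4, 3329 and 3314 in shE2F6, and 7576 and 4486 in shKDM1A. The median log2 change of the 6 rows under shKDM1A was 0.62, with 0 past the test. In the same library ZNF91 was at 303 and ZNF611 at 194, the lowest of their 10 values, and in shKDM1A replicate 2 they were at 536 and 258. This low was not particular to the SVA binders. ZNF93 (447) and ZNF141 (522) were also at their lowest in shKDM1A replicate 1, where 7 of 38 members lay above their own mean. That is a single library, and POU5F1 was also at the ceiling of the table there (148866 against 35710 in both shLUC libraries).

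Of the other element groups, 0 rows passed. L1PA2 to L1PA8, bound by ZNF93, ZNF649 and others, had positive log2 changes in 7 of 7 rows under shMAFK (median 0.24) and in 7 of 7 under shKDM1A (median 0.34). The sign was also positive in 6 of 7 rows under shE2F6 (median 0.09) and in 5 of 7 under shSMARCA4 (median 0.23). In each shLUC library 0 of 7 L1PA rows lay above their own 10-library mean, and all 4 comparisons use these libraries. Of all element rows, 57.8% were positive under shMAFK, 59.1% under shKDM1A, 62.7% under shE2F6 and 68.3% under shSMARCA4. HERVK-int, bound by ZNF417 and ZNF587, was at 3780 and 3780 in shLUC, 6012 and 8496 in shMAFK, 1166 and 1764 in shSMARCA4, 2282 and 3474 in shE2F6, and 1076 and 3474 in shKDM1A. Its log2 changes were -1.40 (adjusted p = 0.169 by limma) under shSMARCA4 and 0.92 (adjusted p = 0.656 by limma) under shMAFK. HERVH-int, listed here with ZNF600, was at the ceiling of 148866 in all 10 libraries, so no difference can be seen in it. Across the 973 element rows of the table the median log2 change was 0.07, 0.03, 0.05 and 0.06 under shSMARCA4, shMAFK, shE2F6 and shKDM1A.

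**Figure D5:**
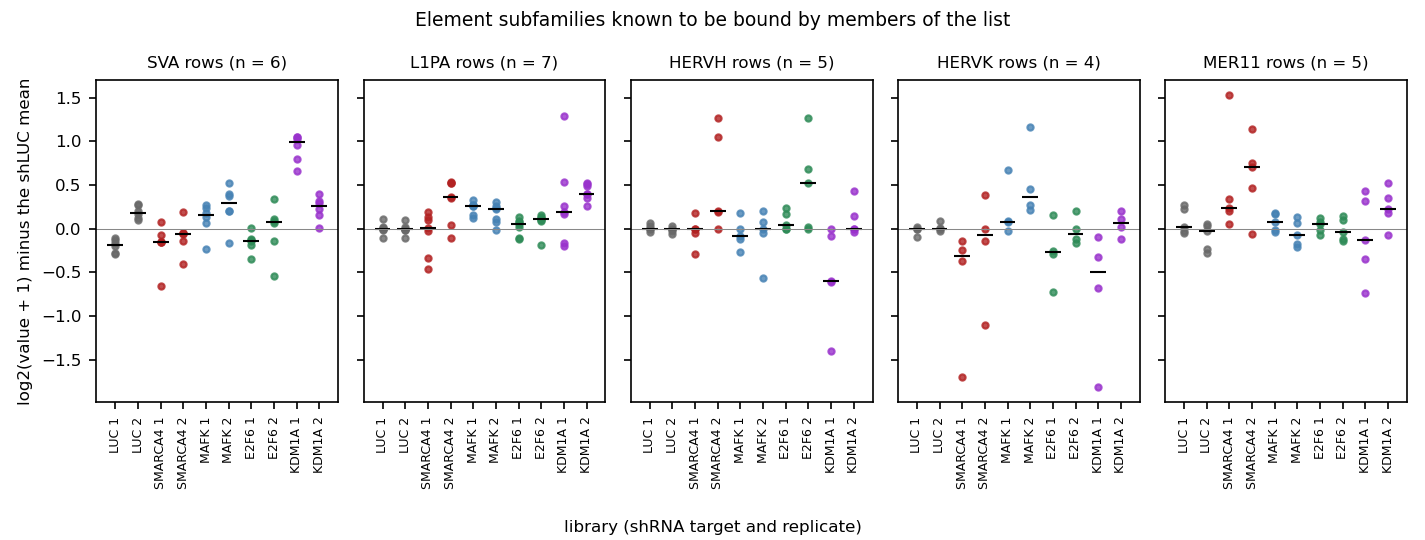
Log2(value + 1) minus the shLUC mean for the 27 element rows, by group of subfamilies and library (points are rows, black bars medians). SVA rows are highest in shKDM1A replicate 1, HERVK11-int is the top MER11 point in both shSMARCA4 libraries, and HERVK-int is the lowest HERVK point there.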

How the data were processed

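RNA-seq values of 10 libraries, 2 in each of 5 groups, were read from the deposited table. The authors' deposited values were treated as a score: whole numbers, abbreviated in the source as normalized tag counts, not raw counts. The submitters' processing notes name hg38, STAR and STARsolo without roles; how reads were counted and normalized is not given in the sources used here. Group and replicate came from the sample titles. Unmapped columns numbered 0. Values were taken as log2(value + 1), a minimum row mean of 10 was set (no row was lost), and 1 model of all 10 libraries was fitted with limma 3.58.1 (R 4.3.3, mean-variance trend, 5 residual degrees of freedom, Benjamini-Hochberg adjustment over 14785 rows, threshold 0.05). The fit was tested on simulated data, in 10 runs with 200 of 14785 rows changed in shSMARCA4. At the same threshold it called 40.8% of changes of 1 log2 unit and 87.3% of changes of 2. False calls had a mean of 6.1 per run. No count model was used, and no precision from depth is given because depth is unknown. Values per library are given for members with the 3 largest differences each way without overlap with shLUC in each knockdown, for 10 well-known members, and for those with the widest replicate difference. The members, the gene lists and this rule were chosen with earlier results of these data known. The KRAB pattern among other zinc finger genes and the promoter families (linked at 65% identity) were set after the data were seen. Alternatives were other pseudocounts, filters, scalings and weights, a replicate block, and leaving out each library. Gene positions, exon lengths and coding sequences are from GENCODE release 29 (GRCh38), and promoters from RefSeq (GRCh38.p14).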

Additional observations from a re-analysis of the deposited data

How the results depend on the processing

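With a separate weight for each group, 1 member passed under shSMARCA4 (ZNF850, adjusted p = 0.0315 by limma), 1 under shMAFK (ZNF649, 0.0156) and 1 in the F-test (ZNF649, 0.0251). Leaving out each library in turn gave 0 to 1 members under shKDM1A (ZNF416, without shKDM1A replicate 2) and 0 to 3 in the F-test (ZNF649, ZNF10 and ZNF589 without shKDM1A replicate 2, and ZNF649 without replicate 1); it gave 0 in the other comparisons. The members' median log2 change, a summary added after seeing the data, ran over these fits from -0.12 to 0.13 under shE2F6, -0.17 to 0.12 under shKDM1A, 0.04 to 0.30 under shMAFK and 0.00 to 0.18 under shSMARCA4. For the single genes named by the rule for a difference without overlap, 0 values changed direction under alternatives. Leaving out 1 library could not reverse them, because they were picked for having no overlap with shLUC. Of these values, 452 stayed on their side of the threshold and 2 (ZNF850 and ZNF649, above) crossed it. The cause was not tested.

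With the replicate number as a block, 0 members passed in each comparison, and HERVK11-int no longer passed (0.0595). The replicate numbers were not treated as a pairing: over all rows the deviations of libraries with the same number correlated at -0.05 to 0.34, above 0.1 for 2 of 10 pairs of groups, and for the members alone at 0.10 to 0.64. The main limits are 2 libraries per group, unknown depth and 1 shared control.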
